A study of Mus musculus with 6 samples.

Results

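The adenylyl cyclases are the enzymes that make cyclic AMP, and the microarrays carried all 10 members of the family, Adcy1 to Adcy10. Members were taken by gene name, as every probe that the scanner files name for one of these symbols, which gave 18 of the 56605 probes and 10 of 37074 gene names. Of the 18 probes, 13 from 9 genes were well above background on all 6 arrays and were tested, and the other 5, the 4 probes of Adcy10 and 1 of the 2 probes of Adcy6, were not tested and are given by their values and detection flags.

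The arrays measured RNA from tissue labelled hypothalamus of male C57BL/6J DIO mice, that is, mice made obese by diet. Mice entered the high-fat diet (60 kcal% fat) at 6 weeks of age and stayed on it for 16 weeks, and 3 mice given GSK-J4 at 30 mg/kg were compared with 3 given vehicle. GSK-J4 is a cell-permeable inhibitor of the KDM6 demethylases, which remove methyl groups from a lysine of histone H3. The design text places collection at day 4 of exposure while the methods describe a course of 21 days with collection at ZT 6, so the length of treatment behind these values is not settled. Each array held RNA of 1 mouse, and no allele or other agent separated the groups.

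Cyclic AMP is made from ATP, mostly at the plasma membrane, where receptors coupled to the G protein Gs switch the cyclases on and those coupled to Gi switch several of them off. The membrane-bound members form groups by what else controls them: Adcy1, Adcy3 and Adcy8 respond to calcium and calmodulin, Adcy2, Adcy4 and Adcy7 are stimulated by G protein βγ subunits, Adcy5 and Adcy6 are inhibited by calcium and by Gi, and Adcy9 is insensitive to forskolin, the plant compound that activates the others. Adcy10 is the soluble member and is switched on by bicarbonate. In the hypothalamus cyclic AMP carries signals of many feeding peptides, among them those that act through the melanocortin receptors.

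Each probe is a DNA oligonucleotide of 60 bases. The probes that the results turn on are shown 5′ to 3′ as the files give them, with capitals for the longest run of bases shared with a probe of another family member. They are shown so that it can be seen which stretch of each transcript was read and how little the family's probes share.

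Adcy4 A_51_P229911: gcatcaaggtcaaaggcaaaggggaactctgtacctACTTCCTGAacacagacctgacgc
Adcy8 A_51_P303061: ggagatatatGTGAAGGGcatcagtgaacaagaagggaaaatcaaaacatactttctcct
Adcy8 A_55_P2734702: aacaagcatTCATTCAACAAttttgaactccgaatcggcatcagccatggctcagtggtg
Adcy8 A_55_P2737852, first 30 bases: ctttacTACTCTCTcgtgagtatttacata
Adcy5 A_55_P2047305, first 30 bases: gcaagaggacacCAGGCAAGGagcagtggc
Adcy3 A_51_P484671: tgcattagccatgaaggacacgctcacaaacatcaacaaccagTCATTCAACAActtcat

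The capitals in the Adcy3 probe and in Adcy8 A_55_P2734702 are the same 11 bases. No 2 probes of different members shared a longer run, and 1 other pair, Adcy1 A_55_P2723574 and Adcy2 A_66_P107351, also shared 11 bases. Over the 141 pairs of probes from different members the median shared run was 6 bases. The GC content of the 18 probes ran from 31.7% to 55%. Coordinates below are those of the files, on mm9. Whether a probe lies in coding sequence or in a UTR was not determined, because no annotation of that build was used here.

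All vehicle arrays lay on one slide and all GSK-J4 arrays on the other, with separate scans, so a difference between slides and one between treatments cannot be told apart here. The 75th percentile of the processed signal was 406 to 461 on the GSK-J4 arrays and 787 to 916 on the vehicle arrays, and the share of probes well above background was 57.7% to 58.7% and 62.8% to 63.6%. Arrays of one group correlated at 0.978 to 0.995 over the kept probes.

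Of the genes that mark the labelled tissue, some were absent or dim and others were present. Both probes of Nkx2-1 and the probe of Sim1, transcription factors of the developing hypothalamus, were above background on 0 of the 6 arrays, and the probes of the neuropeptides Avp, Pmch and Trh on 3 of 6. The probes of Npy, Sst, Cartpt, Gal, Pomc and Oxt were above background on 6 of 6, with Npy at 11.46 to 12.04. Of 15 hypothalamic markers, 10 had a kept probe. On the GSK-J4 arrays 2 of them were called higher, against 8.99% of all genes. All 8 markers of cortex and hippocampus, such as Slc17a7, Tbr1 and Neurod6, had a probe above background on 6 of 6 arrays. The tissue is therefore called by its label only. Vehicle replicate 1 stood apart in choroid plexus markers, whose mean log2 signal was 12.97 on that array and between 7.84 and 9.16 on the other 5. In bulk tissue, fewer cells of a type and less RNA per cell cannot be told apart.

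Signals are the deposited log2 values, quantile normalized between arrays, and a fold change is the mean of the GSK-J4 arrays minus the mean of the vehicle arrays on that log2 scale. Across the family 1 of the 13 tested probes, that of Adcy4, was higher on the GSK-J4 arrays and 0 were lower (limma, adjusted p no greater than 0.05). Over all 34443 kept probes 16.8% passed this threshold, with 8.39% higher and 8.42% lower, so that the share in the family lay below that of the array. With scaling to the 75th percentile the calls over all probes were 5037 higher and 3637 lower in place of 2889 and 2899. At an unadjusted limma p up to 0.05 there were 2 probes, against 36.5% of all kept probes. The methods ask for a 1.5-fold difference together with an unadjusted p up to 0.05, and 0 of the 13 met both, against 12.6% of all kept probes (4.79% higher and 7.86% lower).

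Groups did not overlap in 2 of the 13 probes, those of Adcy4 and Adcy5, against 45.6% of all kept probes, 24.5% with GSK-J4 higher. The fold changes ran from -0.22 to 0.62, with 8 above 0 and 5 below. Their median was 0.07 and that of all kept probes 0.024. The median of their absolute size was 0.12, against 0.25 over all kept probes.

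**Figure D1:**
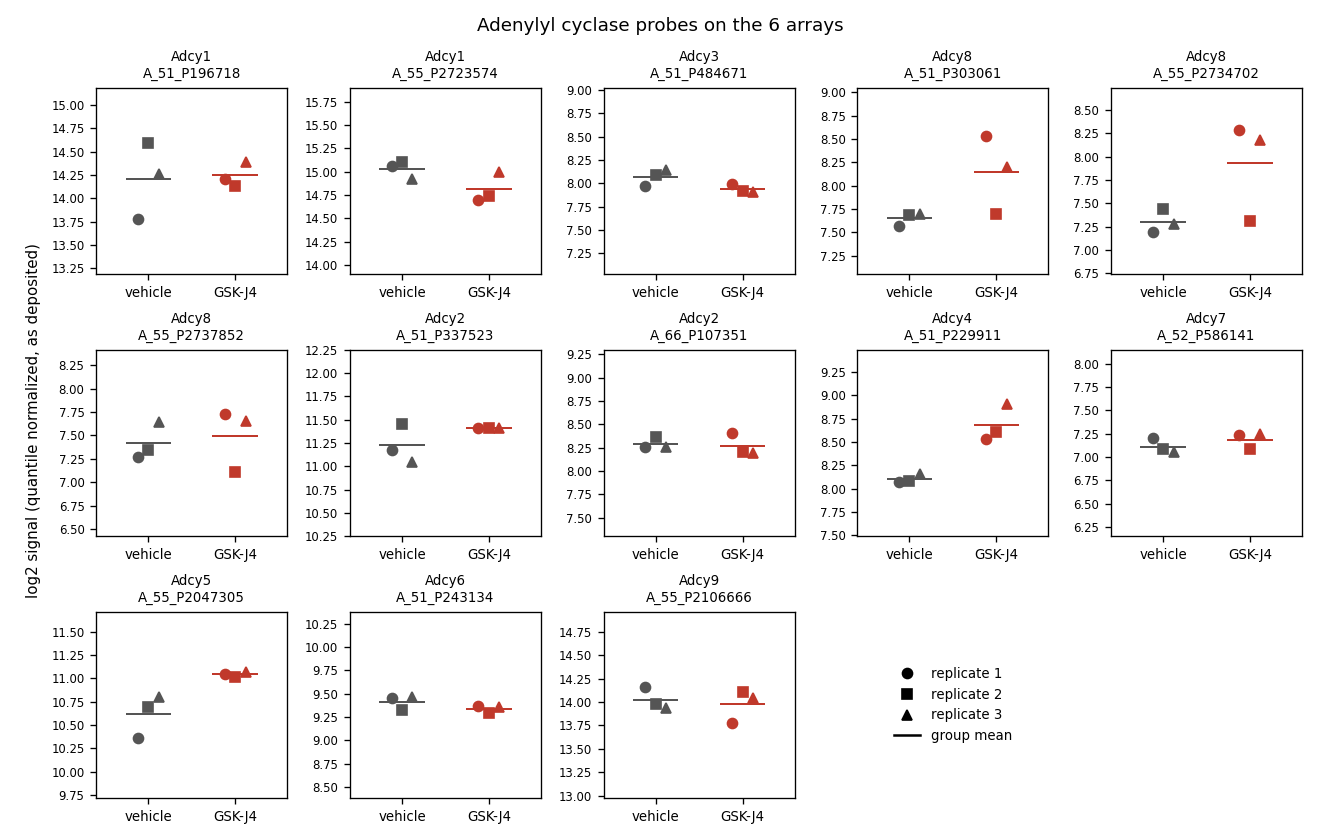
Deposited log2 signal (vertical axis) of the 13 tested adenylyl cyclase probes on the 3 vehicle arrays (grey) and the 3 GSK-J4 arrays (red), 1 panel a probe, each panel spanning the same range of log2 signal. Marker shapes are replicate numbers and lines are group means, and the groups separate without overlap for Adcy4 and Adcy5 only.

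Adcy4 was the called member. It belongs to the βγ-stimulated group and is known from peripheral tissues and from vessels as well as brain. Its probe, A_51_P229911, lies at chr14:56388004-56388063 on the minus strand. The log2 signals were 8.07, 8.08 and 8.16 on the vehicle arrays and 8.53, 8.61 and 8.91 on the GSK-J4 arrays. Every GSK-J4 array was above every vehicle array, and the GSK-J4 arrays were spread more widely. The means were 8.10 ± 0.05 and 8.69 ± 0.20 (SD, n = 3), a log2 fold change of 0.58 (SE 0.12, limma adjusted p = 0.0299) with a 95% interval from 0.30 to 0.87. The exact permutation test over the 6 arrays gave p = 0.1, the smallest it can give with 3 against 3.

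The call of Adcy4 did not hold under every setting. It was lost without any 1 of the 3 vehicle arrays (limma adjusted p from 0.0875 to 0.101) and without GSK-J4 replicate 2 (0.053). GC content moved with it. The Adcy4 probe has 51.7% GC, and among the 2732 kept probes within 2 percentage points of it the median fold change was 0.21, with 17.5% called higher and 1.68% lower. With a GC correction, which takes the lowess trend on GC out of every array, the fold change was 0.36 (limma adjusted p = 0.0996). Of 8 endothelial markers 0 were called and their median fold change was -0.07, and the part of vessel content in the Adcy4 value was not tested.

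The other members of the βγ-stimulated group did not pass the test. Adcy2, a cyclase of neurons, was read by 2 probes that lie far apart on chromosome 13. A_51_P337523, at chr13:68759669-68759728, gave 11.17, 11.45 and 11.05 on the vehicle arrays and 11.41 on each of the 3 GSK-J4 arrays. The GSK-J4 values lay inside the vehicle range, and the fold change was 0.19 (limma adjusted p = 0.291, 95% interval -0.10 to 0.47). A_66_P107351, at chr13:68851940-68851999, gave 8.26, 8.36 and 8.26 on the vehicle arrays and 8.41, 8.20 and 8.19 on the GSK-J4 arrays, with a fold change of -0.02 (95% interval -0.25 to 0.20). The groups overlapped for both probes, and the gap between the probes changed by -0.21 from vehicle to GSK-J4 (exact permutation p = 0.2).

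Adcy7, the βγ-stimulated member best known from cells of the immune system, was read by A_52_P586141 at chr8:90853657-90853716. Its log2 signals were 7.20, 7.08 and 7.05 on the vehicle arrays and 7.23, 7.08 and 7.25 on the GSK-J4 arrays. The groups overlapped, with a fold change of 0.07 and a 95% interval from -0.13 to 0.28. Of 8 microglial markers 2 were called higher, against 8.99% of all genes, with a median of 0.30 over the list. The called genes were C1qa at 0.41 and C1qb at 0.46. The groups did not overlap for 5 of the 8, all higher with GSK-J4. These were C1qa, C1qb, Aif1 at 0.58, and Cx3cr1 and Trem2 at 0.30 each. The others were Tmem119 at 0.03, P2ry12 at -0.01 and Csf1r at -0.35. On GSK-J4 replicate 3 Tmem119 and Csf1r were below all vehicle arrays. On GSK-J4 replicates 1 and 2 they were above all vehicle arrays. The part of microglial content in the Adcy7 value was not tested.

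**Figure D2:**
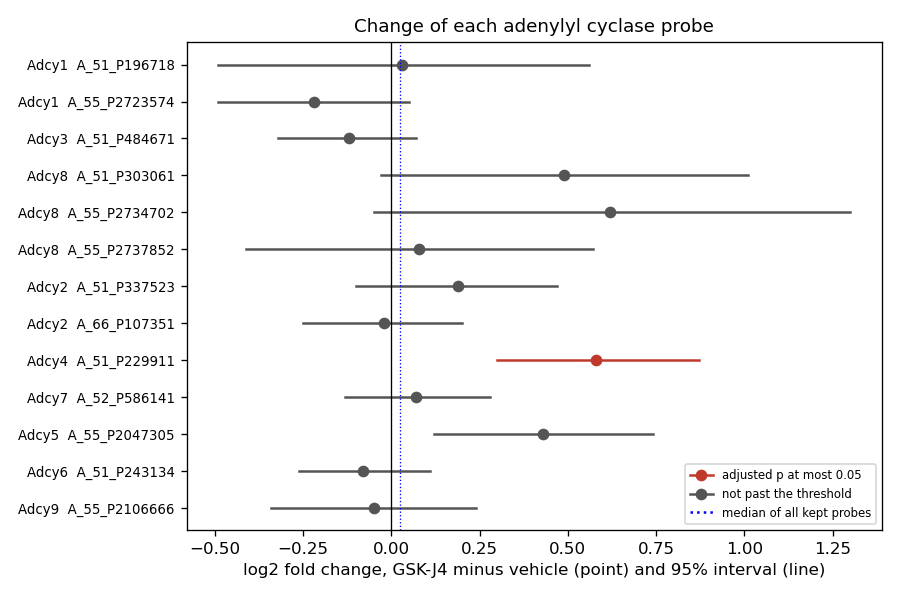
Log2 fold change of GSK-J4 minus vehicle (horizontal axis, point) with its 95% interval (line) for the 13 tested probes, and the median of all 34443 kept probes as a dotted line. The interval lies wholly above 0 for Adcy4 (0.30 to 0.87) and Adcy5 (0.12 to 0.74), of which only Adcy4 passed the adjusted threshold.

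Among the members inhibited by Gi and calcium, Adcy5 had the largest difference but did not pass the test. Adcy5 is the main cyclase of the striatum, where it serves dopamine receptors. Its probe, A_55_P2047305, lies at chr16:35304398-35304457. The log2 signals were 10.36, 10.69 and 10.80 on the vehicle arrays and 11.05, 11.01 and 11.07 on the GSK-J4 arrays. The GSK-J4 arrays lay close together and above all vehicle arrays, of which replicate 1 was the lowest. The means were 10.62 ± 0.23 and 11.05 ± 0.03 (SD, n = 3), a log2 fold change of 0.43 (SE 0.13, limma adjusted p = 0.068, 95% interval 0.12 to 0.74, exact permutation p = 0.1).

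Without vehicle replicate 1, the array high in choroid plexus markers, the fold change of Adcy5 was 0.30 (limma adjusted p = 0.0985). Scaling to the 75th percentile gave 0.52 with an adjusted p of 0.0363, and an intensity trend in the variance model gave 0.43 with 0.0498, both past the threshold. The mean log2 signal of the 7 kept striatal markers also did not overlap between the groups, at 7.56 to 7.71 on the vehicle and 7.75 to 8.18 on the GSK-J4 arrays, while 0 of the 7 were called and 2 of the 7 had groups that did not overlap. This was not particular to striatum. The mean of the hypothalamic list was 7.63 to 7.85 on the vehicle and 8.05 to 8.25 on the GSK-J4 arrays. The thalamic list gave 9.59 to 9.71 and 9.76 to 10.01. For cortex and hippocampus the GSK-J4 arrays were lower, at 11.57 to 11.61 on the vehicle and 11.40 to 11.56 on the GSK-J4 arrays. The part of striatal or other regional content in the Adcy5 value was not tested. The probe has 40% GC, and the 6813 kept probes within 2 percentage points of it had a median fold change of -0.02, with 5.09% called higher and 9.48% lower.

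Adcy6, the close relative of Adcy5 that is widespread in heart and brain, was read by A_51_P243134, for which the files list only 15 bases, chr15:98420404-98420418. The log2 signals were 9.45, 9.33 and 9.47 on the vehicle arrays and 9.37, 9.29 and 9.36 on the GSK-J4 arrays. The groups overlapped and the fold change was -0.08 (limma adjusted p = 0.489, 95% interval -0.26 to 0.11). This probe has the highest GC content of the family, 55%, and with the GC trend removed its fold change was -0.33 (limma adjusted p = 0.0485). The second Adcy6 probe, A_55_P2744107, was above background on 2 of 3 arrays of each group and was not tested. It gave 4.27, 3.66 and 4.37 on the vehicle arrays and 6.60, 4.98 and 4.01 on the GSK-J4 arrays, with overlap between the groups.

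The calcium-stimulated members differed among themselves in how the arrays spread. Adcy8, a calcium sensor of neurons, was read by 3 probes, and 2 of them, which lie near each other on the same transcript record, moved alike. A_51_P303061, at chr15:64530939-64530998, gave 7.57, 7.69 and 7.70 on the vehicle arrays and 8.53, 7.70 and 8.20 on the GSK-J4 arrays. A_55_P2734702, listed across 2430 bases at chr15:64531160-64533589, gave 7.19, 7.44 and 7.28 on the vehicle arrays and 8.29, 7.31 and 8.18 on the GSK-J4 arrays. For both probes replicates 1 and 3 of GSK-J4 were above all vehicle arrays while GSK-J4 replicate 2 was at the level of the vehicle arrays.

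The fold changes of these 2 Adcy8 probes were 0.49 (SE 0.21, limma adjusted p = 0.156, 95% interval -0.03 to 1.01) and 0.62 (SE 0.27, limma adjusted p = 0.159, 95% interval -0.05 to 1.30). The SD within the GSK-J4 group was 0.42 and 0.54 (n = 3), close to the differences themselves, and neither passed the test. Without GSK-J4 replicate 2 they were 0.71 (limma adjusted p = 0.0377) and 0.94 (limma adjusted p = 0.0207). The mean log2 signal of the 7 kept striatal markers was likewise lowest of its group on that array, at 8.18, 7.75 and 8.16 on GSK-J4 replicates 1 to 3 against 7.62, 7.56 and 7.71 on the vehicle arrays. GSK-J4 replicate 2 was the lowest of its group for 4 of these 7 markers, such as the dopamine receptor Drd1a at 9.15, 8.49 and 9.21, but not for Adora2a, Rgs9 and Ido1. Of the 8 listed striatal markers Drd2 was not kept, and 0 of the 7 were called. Their summed linear signal overlapped between groups, at 6580 to 10300 on the vehicle and 7040 to 9170 on the GSK-J4 arrays. That sum is weighted to Ppp1r1b, the brightest of the 7. Its log2 signals were 13.07, 12.15 and 12.07 on the vehicle arrays and 12.48, 12.24 and 12.61 on the GSK-J4 arrays. Other lists were also lowest of their group on GSK-J4 replicate 2. The hypothalamic mean was 8.21, 8.05 and 8.25 on GSK-J4 replicates 1 to 3, and the thalamic mean 9.88, 9.76 and 10.01. The means of cortex and hippocampus, choroid plexus and oligodendrocytes were lowest there too. Those of microglia, endothelium, astrocytes, neurons, and ependyma and tanycytes were not. The part of striatal or other regional content in the Adcy8 values was not tested.

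The third Adcy8 probe, A_55_P2737852, is listed for another transcript record and lies at chr15:64614139-64614198. It gave 7.27, 7.34 and 7.64 on the vehicle arrays and 7.73, 7.11 and 7.65 on the GSK-J4 arrays, a fold change of 0.08 (95% interval -0.41 to 0.57). GSK-J4 replicate 2 was again the lowest of its group, but the other GSK-J4 arrays were not clear of the vehicle arrays. Levels of different probes cannot be compared, so only the change in the gap between them was tested. The gap of A_55_P2737852 minus A_51_P303061 went from -0.24 ± 0.16 on the vehicle arrays to -0.65 ± 0.13 on the GSK-J4 arrays (SD, n = 3, exact permutation p = 0.1, 0.25 after Benjamini-Hochberg adjustment over 5 pairs of probes).

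Adcy1, the calmodulin-stimulated cyclase known for its part in synaptic plasticity, was read by 2 probes that lie near each other on chromosome 11. A_51_P196718, at chr11:7077699-7077755, gave 13.78, 14.59 and 14.26 on the vehicle arrays and 14.21, 14.13 and 14.39 on the GSK-J4 arrays, with a fold change of 0.03 (95% interval -0.49 to 0.56). A_55_P2723574, at chr11:7078432-7078491, gave 15.06, 15.10 and 14.92 on the vehicle arrays and 14.70, 14.74 and 15.00 on the GSK-J4 arrays, with a fold change of -0.22 (limma adjusted p = 0.209, 95% interval -0.49 to 0.05). Groups overlapped for both. The change in the gap between them was -0.25 (exact permutation p = 0.4).

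Adcy3, the cyclase of olfactory and neuronal cilia, was read by A_51_P484671 at chr12:4211535-4211594. The log2 signals were 7.97, 8.09 and 8.14 on the vehicle arrays and 7.99, 7.92 and 7.91 on the GSK-J4 arrays. The groups overlapped through vehicle replicate 1, and the fold change was -0.12 (limma adjusted p = 0.298, 95% interval -0.32 to 0.07).

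Adcy9, the forskolin-insensitive member, was read by A_55_P2106666 at chr16:4287678-4287737. Its log2 signals were 14.16, 13.98 and 13.94 on the vehicle arrays and 13.78, 14.11 and 14.04 on the GSK-J4 arrays. The groups overlapped and the fold change was -0.05 (95% interval -0.34 to 0.24).

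The soluble cyclase Adcy10 had 4 probes on chromosome 1, none of them well above background on all arrays of a group. A_55_P2715618 was above background on 1 vehicle array and on 0 GSK-J4 arrays, and the other 3 on 0 of 6. Log2 signals of A_55_P2715623 stayed between 1.88 and 1.90, and those of A_55_P2058995, A_51_P256747 and A_55_P2715618 between 1.89 and 4.03 over the 6 arrays. These values have no fold change, and no expression or loss of Adcy10 can be read from them.

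**Figure D3:**
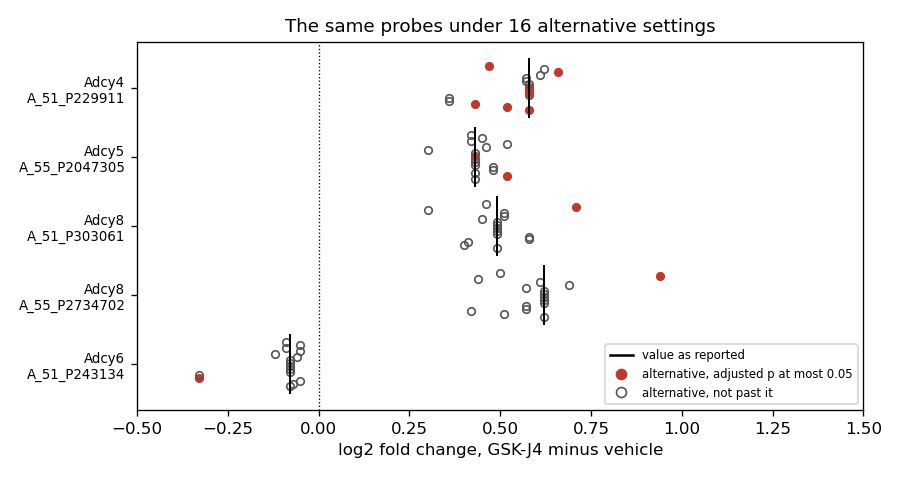
Log2 fold change (horizontal axis) of the probes of Adcy4, Adcy5, Adcy6 and 2 of Adcy8 under 16 alternative settings (circles, filled red where the adjusted p was at most 0.05), with the reported value as a vertical line. Adcy4 ranged from 0.36 to 0.66 and passed in 8 of 16, and the Adcy8 probes passed only without GSK-J4 replicate 2.

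The genes around the cyclases were described with 1 probe a gene, that of the highest mean signal. Of 73 listed genes of the cyclic AMP pathway 67 were kept, of which 4 were higher and 10 lower on the GSK-J4 arrays at the same adjusted threshold. This is 20.9% of the genes, against 16.8% of all 22117 genes, of which 8.99% were higher and 7.79% lower. The median fold change was -0.03 over the lists and 0.036 over all genes. With scaling to the 75th percentile the split turned to 15 higher and 8 lower, and with the GC trend removed it was 2 higher and 4 lower, with 5 of the 14 genes still called (Pde4d, Pde1c, Pde4c, Pkia and Gucy1b3). Without any 1 of the 3 vehicle arrays 0 pathway genes were called. The 4 probes called higher had 45% to 55% GC and the 10 called lower 28.3% to 41.7%.

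Upstream of the cyclases, 1 of 7 G protein α subunits was lower. Gnai1, an inhibitory subunit, had log2 signals of 13.29 ± 0.03 on the vehicle and 12.98 ± 0.07 on the GSK-J4 arrays (SD, n = 3), a fold change of -0.31 (limma adjusted p = 0.0369). This call was lost with the GC correction and with scaling to the 75th percentile. None of the 7 genes for calmodulin and calcium regulators was called, and the largest differences were those of Ppp3ca and Ppp3cb, the calcineurin catalytic subunits, at -0.25 and -0.23.

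Downstream, 2 of the 10 genes for Epac and other direct effectors rose. Hcn4, a channel gated by cyclic AMP, went from 5.26 ± 0.23 to 5.86 ± 0.08 (SD, n = 3, fold change 0.60, limma adjusted p = 0.0358). Rapgef3, which codes for the exchange factor Epac1, had a fold change of 0.38 (limma adjusted p = 0.0441). Neither was called with the GC correction, where Hcn3, a related channel, was called higher. Both calls were also lost with another background correction. Of 9 genes for protein kinase A subunits and inhibitors 1 was lower: Pkia, an inhibitor of the kinase, fell from 11.70 ± 0.06 to 11.11 ± 0.14 (SD, n = 3, fold change -0.58, limma adjusted p = 0.0202).

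Among the 15 kept phosphodiesterases, the enzymes that break cyclic AMP down, 2 rose and 2 fell. Pde4d had a fold change of 0.84 (limma adjusted p = 0.0335) and the calmodulin-stimulated Pde1b one of 0.37 (limma adjusted p = 0.0338). Pde1c, also calmodulin-stimulated, went from 11.03 ± 0.22 to 10.07 ± 0.23 (SD, n = 3), a fold change of -0.96 (limma adjusted p = 0.0228), and Pde4c had -0.60 (limma adjusted p = 0.0128). The direction of Pde4d and Pde1c depended on the probe: the 6 kept probes of Pde4d ran from -1.95 to 0.93, and the 3 of Pde1c from -0.96 to 0.31.

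Of the 11 anchoring proteins, which tether protein kinase A near cyclases and phosphodiesterases, 4 fell and 0 rose, with a median of -0.18. Of all genes 7.79% were lower and 8.99% higher. The called genes were Akap8 (-0.49, limma adjusted p = 0.0243), Akap13 (-0.45, limma adjusted p = 0.0369), Akap1 (-0.32, limma adjusted p = 0.0291) and Akap10 (-0.29, limma adjusted p = 0.0445). The probes of these 4 genes have 28.3% to 36.7% GC. Among the 9983 kept probes with up to 38% GC the median fold change was -0.14, with 1.94% called higher and 14.9% lower. With the GC trend removed 0 of these 4 were called. The part of GC content in these values was not tested further. Akap13 was also not called with scaling to the 75th percentile, and Akap10 not with the other background correction. The 3 kept probes of Akap10 ran from -0.29 to 0.02, and 0 of them were called in the fit over all probes. Of the 8 kept guanylyl cyclases and cyclase-associated genes 2 were lower, Gucy1b3, a subunit of the nitric oxide receptor, at -0.54 (limma adjusted p = 0.0155) and Cap1, an actin-binding protein that in yeast was found with the cyclase, at -0.32 (limma adjusted p = 0.0437). The call of Cap1 was lost with the GC correction, with scaling to the 75th percentile and with the other background correction.

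**Figure D4:**
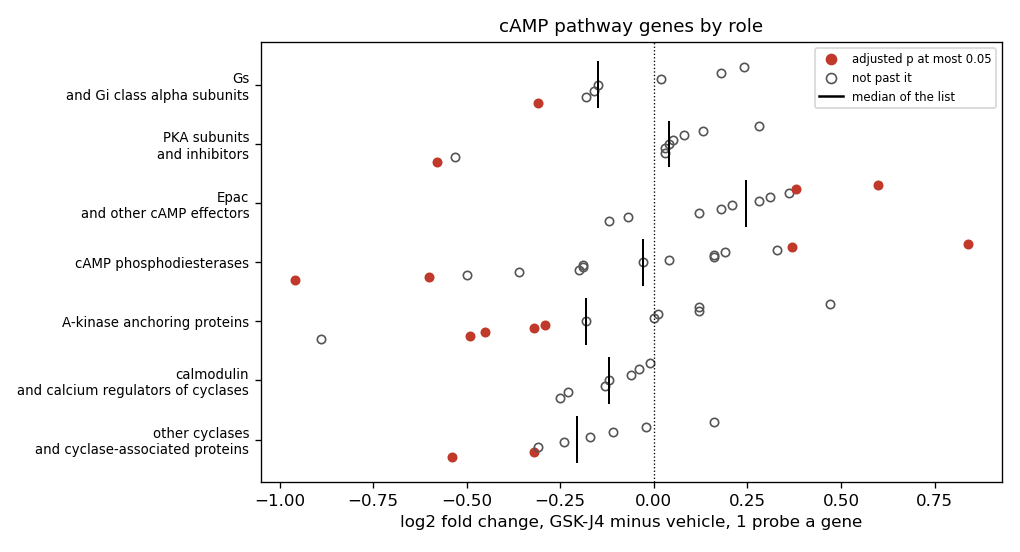
Log2 fold change of GSK-J4 minus vehicle (horizontal axis) of the 67 kept cyclic AMP pathway genes by role, 1 probe a gene, filled red where the adjusted p was at most 0.05, with the median of each list as a vertical line. Calls in both directions occur among phosphodiesterases only, and the 4 called anchoring proteins all lie below 0.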

How the data were processed

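RNA of 3 mice given GSK-J4 and 3 given vehicle was hybridised to 6 one-colour arrays. The authors extracted intensities with Feature Extraction 10.7.1.1 and deposited them with spot flags. A matrix of log2 signals was deposited too, described in the methods as quantile normalized in GeneSpring, whose sorted values differ by at most 0.00424 between arrays. These log2 signals were the main values, and the intensities served for detection flags and alternatives. Depth does not apply to arrays, and the number of arrays limits precision.

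A probe was kept if every one of the 3 arrays in either group flagged it as well above background (34443 of 56605). Groups, taken from sample titles, were compared in limma 3.58.1 (R 4.3.3, data.table, version 1.17.8) with lmFit and eBayes, two-sided, without covariates, with Benjamini-Hochberg adjustment over all kept probes, or over 22117 genes for pathway lists. Exact permutation tests enumerated 20 orders. All kept family probes are named, and of each pathway list the called genes, at most 4 by size. On simulated data with 200 of 34443 probes changed by 1 log2 unit, 49.4% were recovered over 10 simulations and 5.3% of calls were false. In the data 5788 probes were called, slide lay with treatment, and the family's fold changes were at most 0.62. These rates are therefore not the recovery or the error rate of the reported calls. The members and lists were chosen with earlier results of these data known. Alternatives were other scaling, background correction, filters and variance models, a GC correction, the methods' t-test, the replicate number as a block and leaving out each array. A planned comparison of protein sequences was not done.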

Additional observations from a re-analysis of the deposited data

How the results depend on the processing

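The replicate numbers did not pair the arrays: deviations of arrays with the same number correlated at 0.01, 0.03 and 0.08. With the number as a block 0 of the 34443 probes, 0 family probes and 0 pathway genes passed an adjusted p of 0.05, also with the GC correction added, and Adcy4 had an adjusted p of 0.0822.

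The count of called family probes, 1 as reported, was 2 with scaling to the 75th percentile and with an intensity trend, and 0 without a filter on dim probes (Adcy4 at 0.0502) and with the methods' t-test without equal variances. With the GC correction it was again 1, but Adcy6 in place of Adcy4. All probes called, 5788 as reported, were 8674 with 75th percentile scaling, 3649 with the GC correction, 3765 without a filter and 93 with the t-test. The 14 pathway genes became 23 with 75th percentile scaling (11 of them shared), 6 with the GC correction (5 shared), 6 without a filter, 8 with the detection flag gIsPosAndSignif and 27 with any probe of the gene.

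Leaving out 1 array gave 0 to 2 family probes past the adjusted threshold, 0 to 3 past the methods' thresholds, 5 to 4165 of all probes and 0 to 8 pathway genes. All probes called were 10, 13 and 5 without vehicle replicate 1, 2 and 3, and 2402 without GSK-J4 replicate 1. Without GSK-J4 replicate 2, 3 family probes passed the methods' thresholds. The direction of 7 probes that did not pass the test turned. Scaling to the 75th percentile gave 0.20 for Adcy1 A_55_P2723574, -0.04 for Adcy8 A_55_P2737852, -0.06 for Adcy7 and 0.25 for Adcy9. The GC correction, with or without the block, gave -0.03 for Adcy2 A_51_P337523 and 0.27 for Adcy2 A_66_P107351. Leaving out 1 array gave -0.18 to 0.22 for Adcy1 A_51_P196718, -0.12 to 0.05 for Adcy9, -0.10 to 0.01 for Adcy2 A_66_P107351 and -0.04 to 0.28 for Adcy8 A_55_P2737852. The cause was not tested. Of 208 values of single probes under an alternative, 179 kept both direction and side of the threshold, 8 lost the call, all of Adcy4, 5 gained one and 16 turned.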

Other observations

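Different probes of a pathway gene often differed in direction, which the values of 1 probe a gene do not show. When any kept probe of a gene was counted, 27 pathway genes had a probe past a limma adjusted p of 0.05. Of these, 10 had a higher and 19 a lower probe, so that 2 had both. The share of all genes counted in this way is not given here. These counts therefore have no background and are not a result about the pathway. The 2 genes with both were Gnas, the stimulatory G protein subunit that activates the membrane-bound cyclases, and Pde4d. The 7 kept probes of Gnas ran from -0.54 to 0.94, with 1 called higher and 2 lower. Of the 5 kept probes of Pkib, an inhibitor of protein kinase A, which ran from -0.53 to 0.98, 1 was called higher, while its probe of highest mean signal was at -0.53 with a limma adjusted p of 0.0505 in the fit with 1 probe a gene. These genes were singled out after their values were seen.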
